A study of Homo sapiens with 14 samples.

Results

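TPM1, TPM2, TPM3 and TPM4, the 4 tropomyosin genes of the human genome, were followed through 14 RNA libraries of MCF-10A cells, an immortalised and non-tumorigenic human mammary epithelial line. The genes were chosen by symbol, and each had 1 locus among the 27543 named loci of the table, so that 4 of 4 genes were found and all 4 passed the filter on low values. The libraries form 7 groups of 2, harvested on day 2 after retroviral infection. Cells of the Hygro vector and Puro vector groups received an empty vector, and cells of the YAP 5SA group received a hyperactive YAP, which is a coactivator of TEAD factors. The other 4 groups received a form of the SRF coactivator MRTFB. All 4 forms carry the dN change, which removes binding to G-actin. MRTFB dN is otherwise wild type, MRTFB dN dPY also lacks binding to YAP, MRTFB dN Y305A also lacks binding to SRF, and neither contact is left in MRTFB dN Y305A/dPY. The study asked which genes MRTFB turns on in these cells and whether they need its contact with SRF or with YAP. The labels do not say which vector carries each construct, nor whether the 2 libraries of a group came from separate cultures, so p-values measure only the spread between these libraries, which may be technical. All constructs are overexpressed, and no MRTFB form that still binds G-actin is among the groups.

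Tropomyosins are coiled-coil proteins that pair into dimers and lie end to end along the actin filament, where they set which myosins and which severing or side-binding proteins reach it. TPM1, TPM2 and TPM3 are known from striated and smooth muscle and each also gives shorter forms in other cells, while TPM4 is mainly known from non-muscle cells. In non-muscle cells tropomyosins mark stress fibres, the contractile actin bundles. MRTF proteins are held in the cytoplasm by G-actin, and once released they act with SRF at CArG boxes, the DNA elements that SRF binds, while YAP acts with TEAD factors at the element GGAATG.

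The sequences upstream of the genes are shown because the groups differ in the capacity of MRTFB to bind SRF. RefSeq (GRCh38.p14) gives 1 window of 250 bases before a start site for TPM1, 2 for TPM2, 2 for TPM3 and 3 for TPM4, of which 5 are printed 5′ to 3′ on the gene's strand, with a CArG box, or one with 1 base changed, in capitals. They are TPM1 at chr15:63048239-63048488 (plus strand), TPM2 at chr9:35690057-35690306 (minus strand), TPM3 at chr1:154183219-154183468 (minus strand), and TPM4 at chr19:16067288-16067537 and at chr19:16076245-16076494 (plus strand).
TPM1: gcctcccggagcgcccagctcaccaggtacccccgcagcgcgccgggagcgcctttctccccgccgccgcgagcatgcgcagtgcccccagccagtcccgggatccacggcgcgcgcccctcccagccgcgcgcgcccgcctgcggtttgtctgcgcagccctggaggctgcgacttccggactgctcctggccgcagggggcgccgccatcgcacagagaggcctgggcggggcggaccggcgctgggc
TPM2: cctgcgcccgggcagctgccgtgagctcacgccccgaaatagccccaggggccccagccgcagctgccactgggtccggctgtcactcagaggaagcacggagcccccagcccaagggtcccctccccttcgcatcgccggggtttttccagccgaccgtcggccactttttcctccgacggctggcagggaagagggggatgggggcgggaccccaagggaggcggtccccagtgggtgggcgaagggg
TPM3: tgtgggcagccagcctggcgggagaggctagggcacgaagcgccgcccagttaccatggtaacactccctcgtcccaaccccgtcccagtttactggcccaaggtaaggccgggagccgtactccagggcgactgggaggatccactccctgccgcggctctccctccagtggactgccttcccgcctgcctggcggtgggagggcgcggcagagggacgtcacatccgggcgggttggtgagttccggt
TPM4 first window: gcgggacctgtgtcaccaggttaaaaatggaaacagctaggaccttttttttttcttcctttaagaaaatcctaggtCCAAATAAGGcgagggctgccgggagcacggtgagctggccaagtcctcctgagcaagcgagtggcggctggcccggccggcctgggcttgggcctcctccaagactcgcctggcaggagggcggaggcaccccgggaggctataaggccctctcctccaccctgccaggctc
TPM4 second window: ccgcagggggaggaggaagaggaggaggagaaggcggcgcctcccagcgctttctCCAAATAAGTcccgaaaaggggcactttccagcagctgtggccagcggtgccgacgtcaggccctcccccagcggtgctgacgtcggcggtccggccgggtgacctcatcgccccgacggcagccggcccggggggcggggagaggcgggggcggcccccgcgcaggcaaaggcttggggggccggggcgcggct

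The first TPM4 window holds the CArG box CCAAATAAGG at 173 to 164 bases before the start. The second holds CCAAATAAGT at 195 to 186 bases before its start, which differs from a CArG box by G10T, counted from 1 at the first base of the element. The third TPM4 window, at chr19:16076766-16077015, holds an element with the change G9C at 213 to 204 bases before its start. No CArG box, and none with 1 base changed, was found in the windows of TPM1, TPM2 and TPM3, and GGAATG (searched with its complement CATTCC) was in none of the windows of the 4 genes. Among all 35116 RefSeq windows of this length, 1.16% held a CArG box, 15.88% held one with 1 base changed and 11.89% held GGAATG, on either strand. A match of letters is a description of the window and no evidence of binding, and these windows leave out introns and more distant sequence.

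Expression is given in FPKM (fragments scaled by the length of the gene and the size of the library), which allows levels of different genes to be set side by side. The constructs could be seen in the libraries. YAP1 stood at 625 and 529 FPKM in the YAP 5SA libraries against 32.4 and 23.3 in the Hygro vector, and MKL2, the symbol of MRTFB in the table, stood at 165 to 610 FPKM in the 8 MRTFB libraries against 3.06 to 6.60 in the 6 others. The MKL2 level was not equal between forms: the MRTFB dN libraries had 300 and 165 FPKM, those of MRTFB dN dPY had 286 and 171, those of MRTFB dN Y305A had 404 and 294, and those of MRTFB dN Y305A/dPY had 610 and 343. Absolute depth is unknown, and with Hygro vector replicate 1 set to 1, relative depth as read from the lowest values ran from 0.315 in replicate 1 of the Puro vector to 1.39 in replicate 1 of YAP 5SA. Puro vector replicate 1 stood apart, with 4780 unnamed loci at 1 FPKM or more against 211 to 669 in the other libraries. MRTFB dN dPY replicate 1 is at 0 over runs of 5257 loci in all, mostly of chromosomes 7, 8, 9 and X, with TPM2 on chromosome 9 among them, and these were treated as missing. At least 8 of 9 basal mammary epithelial markers reached 1 FPKM in every library. Their sum was 2609 and 3557 FPKM in the Puro vector and 14729 and 25336 in the Hygro vector. It was between 30049 and 54062 in MRTFB dN and between 6124 and 18528 in the Y305A libraries. Most of this sum in MRTFB dN was KRT17, at 43206 and 22205 FPKM. KRT17 was at 1139 and 606 in the Puro vector and at 7662 and 12743 in the Hygro vector. KRT5 and CDH1 were also higher in MRTFB dN than in the Puro vector. So were a locus with the names KRT14 and KRT16 and one with the names KRT6A, KRT6B and KRT6C. Which gene of such a locus the reads came from cannot be told. ITGB4 (69.9 and 90.7 against 150 and 419 FPKM) and TP63 (1.93 and 1.84 against 10.4 and 9.20) were lower in MRTFB dN than in the Puro vector. DSG3 and a locus with the names LAMB3 and MIR4260 overlapped between these groups. Against the Hygro vector, KRT5 in MRTFB dN was lower, at 1085 and 874 FPKM against 2161 and 5085. DSG3, ITGB4 and TP63 were also lower there, while KRT17, CDH1 and the KRT6A locus were higher. The KRT14 and LAMB3 loci overlapped. The sum of the luminal markers was 310 and 745 FPKM in the Puro vector and 1192 and 1909 in the Hygro vector. In MRTFB dN it was 6937 and 9274. The part of both lists in the results below was not tested. The smooth muscle regulator MYOCD and the skeletal muscle markers MYOD1, MYOG, DES and CKM stayed below 1 FPKM in all 14. The summed level of MYOCD and MYH11, the smooth muscle markers, was 0.280 to 0.403 FPKM in MRTFB dN. It was 2.60 to 9.35 in the Puro vector and 0.537 to 0.637 in the Hygro vector. Of 6 fibroblast markers 4 (COL1A2, LUM, PDGFRA and PDGFRB) were below 1 FPKM in every library. The sum of the 6 was 2.97 to 3.58 FPKM in MRTFB dN. It was 3.21 to 16.5 in the Puro vector and 5.29 to 6.49 in the Hygro vector. The endothelial markers PECAM1 and VWF and the leukocyte markers PTPRC and CD3E were also below 1 FPKM in all libraries, but the other gene of each list was not. The endothelial marker CDH5 was at most 0.0391 FPKM in the Puro vector, 2.77 and 2.78 in MRTFB dN, 0.631 and 1.21 in MRTFB dN dPY and 4.51 to 14.6 in the Y305A libraries. The monocyte marker CD14 was at 27.9 and 139 FPKM in the Puro vector and 32.2 and 9.17 in the Hygro vector. It was at 1.31 to 4.01 under the SRF-binding forms and 30.6 to 149 in the Y305A libraries. Their part in the results was not tested. The luminal keratins KRT8 and KRT18 were listed at 0 in replicate 1 of both Y305A groups and at 9623 to 16608 FPKM in their replicates 2, so single zeros in this table need caution. No tropomyosin gene was at 0 in a library with a value.

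TPM1, which encodes one of the main stress fibre tropomyosins, had the widest range of the 4 genes. Its level was 23.4 and 118 FPKM in replicates 1 and 2 of the Hygro vector and 19.2 and 17.3 in the Puro vector. In YAP 5SA it was 311 and 269. MRTFB dN brought it to 8948 and 5667 FPKM and MRTFB dN dPY to 8026 and 5654, far above each of the other 10 libraries. With the Y305A change it was 45.5 and 21.2, and with Y305A/dPY 37.9 and 24.5, so all 4 Y305A libraries were below 118 FPKM, the higher of the Hygro vector libraries. In order of the mean, MRTFB dN and MRTFB dN dPY overlapped and stood 23.6-fold above YAP 5SA, the next group. YAP 5SA in turn was 4.10-fold above the mean of the Hygro vector without overlap. The Hygro vector, MRTFB dN Y305A and MRTFB dN Y305A/dPY overlapped, and the Puro vector was lowest.

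TPM2, which encodes the beta tropomyosin of muscle and fibroblasts, was likewise far higher under the SRF-binding forms than elsewhere, while the groups below them came in another order than for TPM1. It was at 33.1 and 141 FPKM in the Hygro vector, 176 and 143 in YAP 5SA, and 58.8 and 109 in the Puro vector. MRTFB dN had 7567 and 5303 FPKM, and the 1 library of MRTFB dN dPY with a value had 5693. MRTFB dN Y305A had 219 and 262 FPKM and MRTFB dN Y305A/dPY had 149 and 189. The 3 libraries of the SRF-binding forms, each at 5303 FPKM or more, did not overlap any other group. Below them came MRTFB dN Y305A, then MRTFB dN Y305A/dPY and YAP 5SA, which overlapped, and last the Hygro and Puro vectors, which also overlapped.

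TPM3, which encodes a widely expressed tropomyosin, moved least. Its level was 75.7 and 158 FPKM in the Hygro vector, 100.7 and 99.9997 in YAP 5SA, and 31.9 and 42.3 in the Puro vector. MRTFB dN had 224 and 165, and MRTFB dN dPY had 203 and 174. With the Y305A change it was 313 and 149, and with Y305A/dPY 281 and 137. The 4 MRTFB groups overlapped one another, and the highest of the 4 by mean were the forms that do not bind SRF. The Puro vector libraries were the lowest of all 14.

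TPM4 had an intermediate range. It was at 63.2 and 219 FPKM in the Hygro vector, 111 and 95.05 in YAP 5SA, and 24.7 and 36.6 in the Puro vector. MRTFB dN had 1428 and 938 FPKM and MRTFB dN dPY had 2169 and 1244. MRTFB dN Y305A had 166 and 82.9, and MRTFB dN Y305A/dPY had 189 and 92.7. The 4 libraries of the SRF-binding forms were above the other 10. The Hygro vector, both Y305A groups and YAP 5SA overlapped, and the Puro vector was again lowest.

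**Figure D1:**
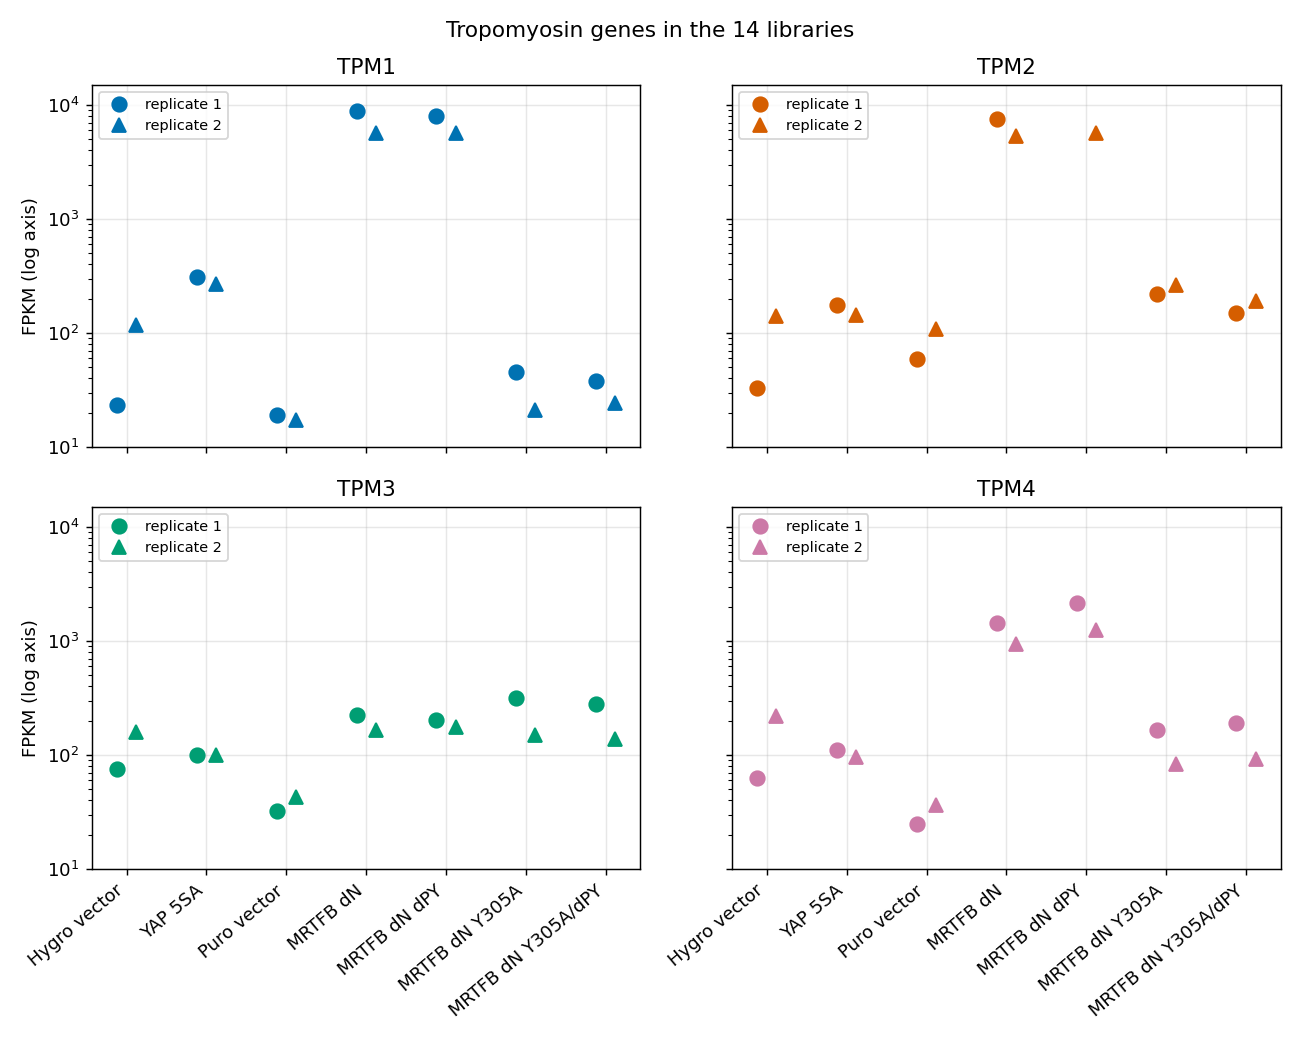
FPKM of TPM1, TPM2, TPM3 and TPM4 (log axis) in each group, with 1 point per library, circles for replicate 1 and triangles for replicate 2. TPM1, TPM2 and TPM4 stand apart in MRTFB dN and MRTFB dN dPY, while TPM3 lies between 137 and 313 FPKM in all 8 MRTFB libraries; MRTFB dN dPY replicate 1 has no TPM2 value.

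The first comparison asks what MRTFB freed from G-actin does to these genes. All 4 rose in MRTFB dN against the Puro vector, by 370-fold for TPM1, 78.2-fold for TPM2, 37.3-fold for TPM4 and 5.11-fold for TPM3. The tests were made with limma on log2(FPKM + 1) over 13137 loci, with Benjamini-Hochberg adjustment and a threshold of 0.05. In log2 units the rise of TPM1 was 8.53 ± 0.64 (SE, adjusted p = 6.2e-06) and that of TPM2 was 6.29 ± 0.60 (adjusted p = 6.6e-05). TPM4 rose by 5.22 ± 0.60 (adjusted p = 1.4e-04) and TPM3 by 2.35 ± 0.47 (adjusted p = 0.0039). Of all tested loci 21.8% were called higher in this comparison. MRTFB dN dPY gave the same 4 calls, where 21% of loci were called higher, with rises of 8.45 for TPM1, 6.14 for TPM2 (from 1 library), 5.73 for TPM4 and 2.32 for TPM3 in log2 units. The adjusted p-values from limma were 6.6e-06, 2.8e-04, 7.2e-05 and 0.0042. The rise of TPM3 rests on the choice of control: against the Hygro vector its change was 0.81 in MRTFB dN (adjusted p = 0.28) and 0.77 in MRTFB dN dPY (adjusted p = 0.29). TPM1 and TPM4 were called against that vector too, at lower values of 7.04 (limma adjusted p = 2.5e-05) and 3.29 (adjusted p = 0.0031) in MRTFB dN and of 6.96 (adjusted p = 3.0e-05) and 3.79 (adjusted p = 0.0013) in MRTFB dN dPY. TPM2 also kept its call against the Hygro vector in both forms. The comparisons against the Puro vector share their 2 control libraries. In RNA from whole cultures a change in the number of cells that express a gene and a change in its RNA per cell cannot be told apart.

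The next comparison asks what remains of this response when MRTFB cannot bind SRF. TPM1, TPM2 and TPM4 were lower in MRTFB dN Y305A than in MRTFB dN, and TPM3 was not called. TPM1 was 222-fold lower, a log2 change of -7.79 ± 0.64 (SE, adjusted p = 1.3e-05, limma). TPM2 was 26.3-fold lower, a log2 change of -4.72 ± 0.60 (adjusted p = 4.7e-04), and TPM4 was 9.79-fold lower, at -3.29 ± 0.60 (adjusted p = 0.0033). TPM3 differed by 0.17 ± 0.47 (adjusted p = 0.88), with a 95% interval from -0.88 to 1.21, which still allows a change of about 1 log2 unit in either direction. Of all loci 10.6% were called lower. The same 3 genes were lower in MRTFB dN Y305A/dPY than in MRTFB dN dPY, where 10.7% of loci were called lower, by -7.74, -5.07 and -3.62 in log2 units for TPM1, TPM2 and TPM4 (limma adjusted p = 1.3e-05, 0.0011 and 0.0018). There TPM3 differed by 0.06 (adjusted p = 0.96).

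With both backgrounds pooled, the mean of the Y305A forms against the mean of the SRF-binding forms gave log2 changes of -7.77 ± 0.45 for TPM1 (limma adjusted p = 4.0e-07), -4.90 ± 0.48 for TPM2 (adjusted p = 3.6e-05) and -3.46 ± 0.43 for TPM4 (adjusted p = 1.2e-04). For TPM3 it was 0.12 ± 0.34 (adjusted p = 0.84, 95% interval -0.62 to 0.86). In this contrast 16.7% of loci were called lower. The MKL2 RNA differed by 0.84 in this contrast (adjusted p = 0.054), which did not pass, with overlapping libraries as given above, and its part in the result was not tested. SRF itself stood at 62.5 and 51.1 FPKM in the MRTFB dN libraries and at 66.6 and 57.2 in those of MRTFB dN dPY, against 6.74 to 8.34 in the 4 Y305A libraries.

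Against the Puro vector, the Y305A forms did not leave all tropomyosin genes at the vector's level. TPM3 rose by 2.52 ± 0.47 log2 units in MRTFB dN Y305A (limma adjusted p = 0.0073) and TPM4 by 1.93 ± 0.60 (adjusted p = 0.040), where 14.2% of loci were called higher. TPM2 differed by 1.57 ± 0.60 (adjusted p = 0.080) and TPM1 by 0.74 ± 0.64 (adjusted p = 0.41), neither of which passed. In MRTFB dN Y305A/dPY TPM3 rose by 2.39 (adjusted p = 0.0077) and TPM4 by 2.10 (adjusted p = 0.029), with 15% of loci called higher, and TPM2 at 1.06 and TPM1 at 0.71 did not pass. These calls depended on the control and on single libraries. Against the Hygro vector none was made: TPM3 differed by 0.97 (adjusted p = 0.40) and TPM4 by -0.01 (adjusted p = 1) in MRTFB dN Y305A, and by 0.84 (adjusted p = 0.45) and 0.17 (adjusted p = 0.95) in MRTFB dN Y305A/dPY. Both calls in each form were also lost without replicate 1 of that form: TPM3 was then 1.99 (adjusted p = 0.084) and 1.87 (adjusted p = 0.082), and TPM4 1.43 (adjusted p = 0.26) and 1.59 (adjusted p = 0.21). Without Puro vector replicate 1 TPM4 was 1.66 (adjusted p = 0.18) and 1.83 (adjusted p = 0.13). With replicate 2 of the Puro vector left out, TPM4 in MRTFB dN Y305A was 2.20 (adjusted p = 0.051).

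Loss of the YAP contact alone changed none of the 4 genes past the threshold. MRTFB dN dPY differed from MRTFB dN by -0.08 for TPM1 (95% interval -1.49 to 1.33), -0.15 for TPM2 (-1.80 to 1.49), -0.03 for TPM3 (-1.08 to 1.01) and 0.50 for TPM4 (-0.83 to 1.83) in log2 units, with limma adjusted p = 1 for each and unadjusted p of 0.42 to 0.95. Only 0.236% of all loci were called in this comparison in either direction. Both TPM4 values of MRTFB dN dPY are above those of MRTFB dN with the same replicate number, but the groups overlap. Between the forms that do not bind SRF, MRTFB dN Y305A/dPY differed from MRTFB dN Y305A by -0.03 for TPM1, -0.51 for TPM2, -0.14 for TPM3 and 0.17 for TPM4, again with adjusted p = 1 (unadjusted p of 0.42 to 0.97), where 0.0152% of loci were called. The intervals here reach from -1.85 to 0.83 for TPM2 and from -1.157 to 1.503 for TPM4, so a change of more than 2-fold is within them. The test of whether the effect of Y305A depends on the YAP contact gave 0.05 ± 0.90 for TPM1, -0.36 ± 0.95 for TPM2, -0.10 ± 0.67 for TPM3 and -0.33 ± 0.85 for TPM4 (adjusted p = 1 for each, unadjusted p of 0.70 to 0.96), with 0.0228% of loci called.

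Whether active YAP alone moves these genes was read from YAP 5SA against the Hygro vector. TPM1 rose by 2.43 ± 0.64 log2 units, or 5.38-fold (limma adjusted p = 0.043), in a comparison in which 3.93% of loci were called higher. TPM2 differed by 1.20 ± 0.60 (adjusted p = 0.27), TPM3 by -0.12 ± 0.47 (adjusted p = 0.93) and TPM4 by -0.20 ± 0.60 (adjusted p = 0.91), and none of these passed. The TPM1 value depends on the spread of the Hygro vector, whose replicate 1 had 0.199 times the TPM1 level of replicate 2. Without Hygro vector replicate 1 the TPM1 change was 1.28 (adjusted p = 0.18), and without YAP 5SA replicate 1 or 2 it was 2.32 (adjusted p = 0.18) or 2.53 (adjusted p = 0.20). It was larger without Hygro vector replicate 2, at 3.57 (limma adjusted p = 0.0056), and against the Puro vector, at 3.91 (adjusted p = 0.0048). Without Hygro vector replicate 2 TPM2 was called higher, at 2.23 (adjusted p = 0.031).

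The response to MRTFB dN, each construct taken against its own control as named here, exceeded the response to YAP 5SA for all 4 genes. The difference of the responses was 6.10 ± 0.90 log2 units for TPM1 (limma adjusted p = 0.0013), 5.09 ± 0.85 for TPM2 (adjusted p = 0.0031), 5.42 ± 0.85 for TPM4 (adjusted p = 0.0018) and 2.48 ± 0.67 for TPM3 (adjusted p = 0.020), while 17.9% of all loci were called higher. With the vectors exchanged, TPM3 was at -0.62 (adjusted p = 0.59) and TPM4 at 1.55 (adjusted p = 0.26), and TPM1 was still called at 3.13 (adjusted p = 0.044). Leaving out Hygro vector replicate 1 raised the differences of TPM1, TPM2 and TPM4 to 7.25, 6.12 and 6.30, and leaving out its replicate 2 lowered them to 4.96, 4.06 and 4.53, with all 3 called each time. TPM3 missed the threshold with no filter on low values (adjusted p = 0.064), and TPM2 with the zeros of MRTFB dN dPY replicate 1 kept (adjusted p = 0.40). TPM3 also fell short without any one of 5 libraries, where its difference was 1.95 to 2.48 with adjusted p = 0.057 to 0.080. They were Hygro vector replicate 2, YAP 5SA replicates 1 and 2, Puro vector replicate 1 and MRTFB dN replicate 1.

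The empty vectors were also compared with each other, since each serves as a control. The Puro vector differed from the Hygro vector by -1.94 ± 0.60 for TPM4 (limma adjusted p = 0.055), -1.55 ± 0.47 for TPM3 (adjusted p = 0.052), -1.49 ± 0.64 for TPM1 (adjusted p = 0.13) and 0.22 ± 0.60 for TPM2 (adjusted p = 0.83). None of the 4 passed the threshold, with unadjusted p = 0.0085 for TPM4, 0.0077 for TPM3 and 0.041 for TPM1, while 14.2% of all loci were called in either direction. Without Hygro vector replicate 1, TPM1, TPM3 and TPM4 were called lower, at -2.63, -2.08 and -2.82 (adjusted p = 0.024, 0.041 and 0.027). All 4 genes were lower in replicate 1 than in replicate 2 of the Hygro vector, with ratios of 0.199, 0.235, 0.478 and 0.289 for TPM1, TPM2, TPM3 and TPM4.

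**Figure D2:**
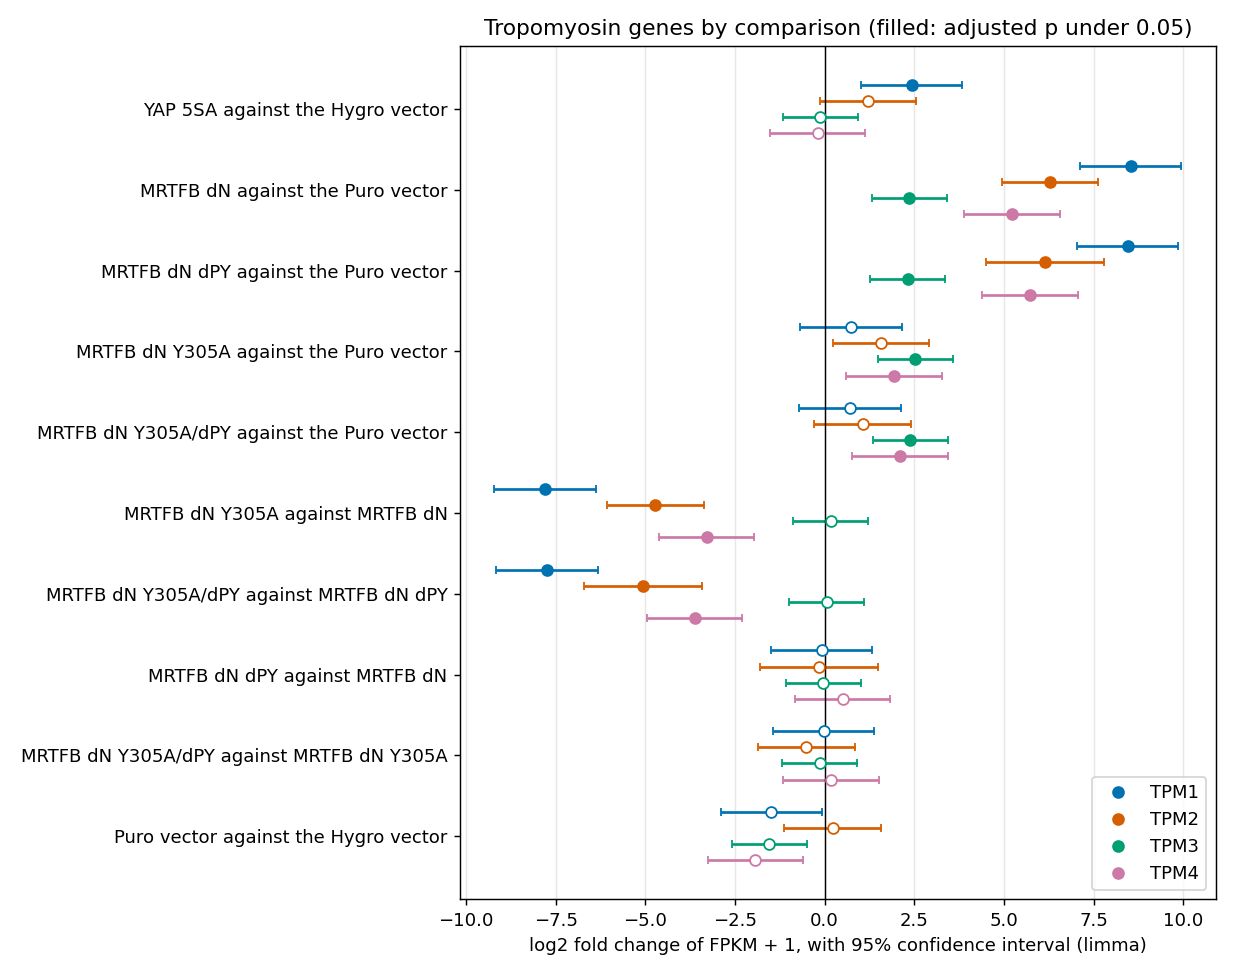
Log2 fold change of FPKM + 1 with its 95% confidence interval (limma) for each tropomyosin gene in 10 comparisons, with filled points where the adjusted p is under 0.05. TPM1 lies at 8.53 and 8.45 under the SRF-binding forms and at -7.79 and -7.74 when the Y305A change is added, while the TPM3 intervals of the Y305A forms against the SRF-binding forms span 0.

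The make-up of the tropomyosin RNA also differed between groups. The summed FPKM of the 4 genes was 195 and 636 in the Hygro vector, 699 and 608 in YAP 5SA, and 135 and 205 in the Puro vector. It reached 18168 and 12073 in MRTFB dN and 12766 in the 1 complete MRTFB dN dPY library, and lay between 444 and 743 in the 4 Y305A libraries. TPM1 and TPM2 made up nearly all of the sum under the SRF-binding forms: in MRTFB dN TPM1 held 49.3% and 46.9% and TPM2 41.7% and 43.9%, while TPM3 held 1.23% and 1.36%. In the Y305A libraries TPM1 held between 4.11% and 6.12%, and TPM3 between 28.95% and 42.8%. There TPM2 held 29.5% and 50.8% in replicates 1 and 2 of MRTFB dN Y305A and 22.7% and 42.7% in those of MRTFB dN Y305A/dPY. The largest part was thus TPM3 in replicate 1 and TPM2 in replicate 2 of each Y305A form. TPM2 was the largest part of the Puro vector libraries, at 43.7% and 53.0%, and TPM4 held 32.3% and 34.4% in the Hygro vector. In YAP 5SA TPM1 was the largest part, at 44.5% and 44.3%, against 11.999% and 18.6% in the Hygro vector.

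A share within a library does not depend on how libraries are scaled. Over TPM1, TPM3 and TPM4, which have a value in all libraries, the 4 libraries of the SRF-binding forms were set against the 4 of the Y305A forms with an exact two-sided permutation test. TPM1 held 81.3% ± 3.38 (SD, n = 4) against 8.53% ± 0.897 (SD, n = 4). TPM3 held 2.24% ± 0.249 against 57.0% ± 2.75, and TPM4 held 16.4% ± 3.48 against 34.5% ± 2.71. The 2 sets did not overlap for any of the 3 genes, and the exact permutation p was 0.029 for each, which is the smallest that 4 against 4 can give, and 0.029 after adjustment over the 3 shares. The 3 shares of a library make up its whole sum, so they are not separate results. A lower share is also not a lower level. In the pooled contrast above, the Y305A forms differed from the SRF-binding forms by -3.46 log2 units for TPM4 and by 0.12 for TPM3. When libraries were exchanged only within a replicate number, since same-numbered libraries of the MRTFB groups deviate together, the exact permutation p was 0.056 for each share, the smallest that the 36 arrangements can give, so the threshold of 0.05 could not be reached.

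**Figure D3:**
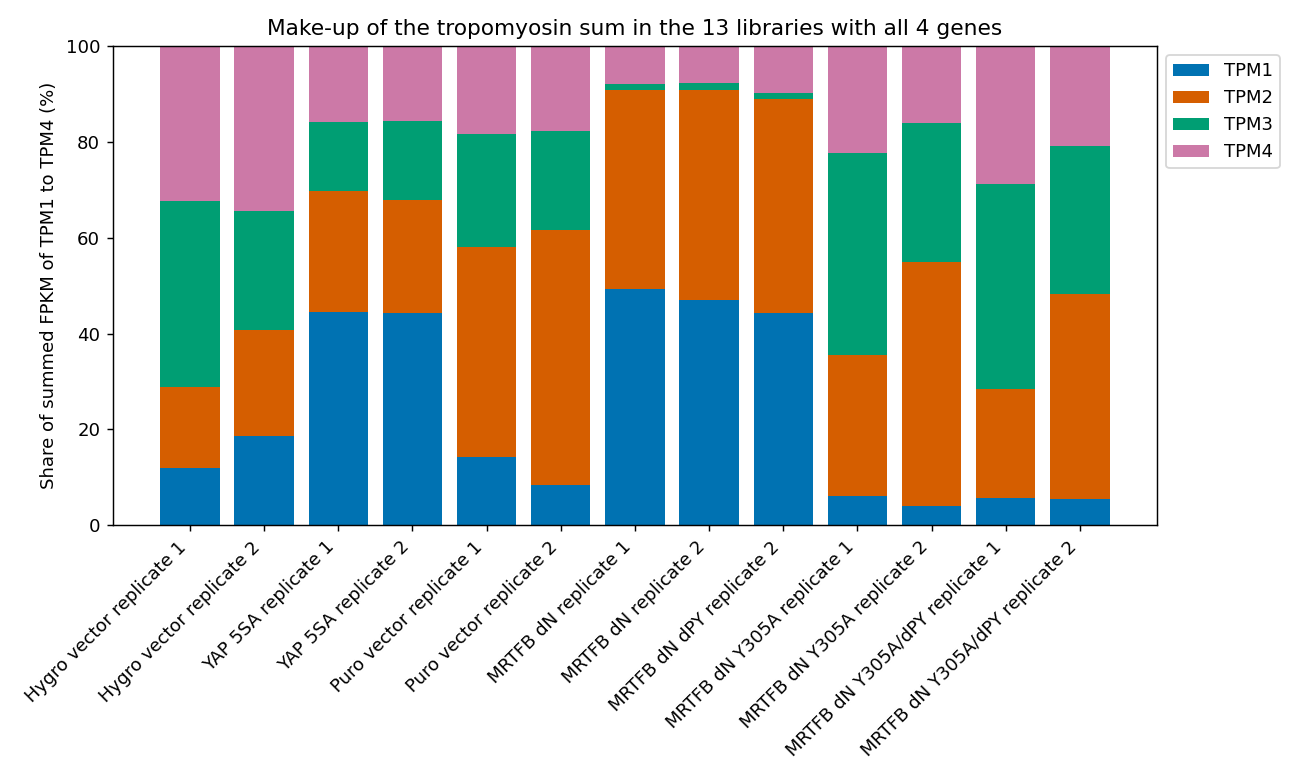
Share of each tropomyosin gene (percent) in the summed FPKM of TPM1 to TPM4, with 1 bar per library for the 13 libraries with a value for all 4 genes. TPM3 holds 1.23% to 1.36% under the SRF-binding forms and 28.95% to 42.8% in the Y305A libraries.

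Replicates of the MRTFB groups differed in a common direction. TPM1, TPM3 and TPM4 were higher in replicate 1 than in replicate 2 in all 4 MRTFB groups, by 1.42 to 2.15 times for TPM1, 1.16 to 2.10 times for TPM3 and 1.52 to 2.04 times for TPM4, and so was MKL2, by 1.37 to 1.82 times. TPM2 went the other way in the Y305A groups, with replicate 1 at 0.837 and 0.786 times replicate 2. Whether the MKL2 level has a part in this was not tested. Of all tested loci, 18.6% were more than 2-fold apart between the Puro vector libraries and 10.6% between the Hygro vector libraries, against 1.10% to 8.30% in the other groups.

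The proteins that share the actin filament with tropomyosin were read from a list of 22 genes, of which 15 were tested and the other 7 were too low. Of the 15, LMOD1, TMOD1, TMOD4 and TNNC1 would not have passed the filter on low values without the libraries of the SRF-binding forms, so they are described by level alone and the counts are given for the other 11. In MRTFB dN against the Puro vector 7 of the 11 rose and 1 fell, where 21.8% of all loci were called higher and 15% lower. The counts for MRTFB dN dPY were 8 higher and 1 lower, beside 21% and 14.8% of all loci. With loss of SRF binding, pooled over both backgrounds, 6 of the 11 fell and none rose, beside 16.7% of all loci called lower and 13.9% higher. Against the Puro vector 4 rose and 1 fell in MRTFB dN Y305A, beside 14.2% and 11% of all loci, and 3 rose and 1 fell in MRTFB dN Y305A/dPY, beside 15% and 11.4%. Loss of the YAP contact moved none of the 11 past the threshold, either with SRF binding or without it. None was called in YAP 5SA, where 3.93% of all loci were called higher and 4.34% lower. Between the empty vectors, 2 of the 11 were lower in the Puro vector than in the Hygro vector and 0 were higher. Of all loci 14.2% were called there in either direction. No test of the MRTFB forms against the Hygro vector is given for the partners.

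At the pointed end of the filament, where tropomyosin is bound by capping and nucleating proteins, LMOD1, a leiomodin that nucleates filaments in smooth muscle, went from 0.159 and 0.0318 FPKM in the Puro vector to 461 and 319 under MRTFB dN and to 395 and 276 under MRTFB dN dPY. It was between 0.0154 and 0.125 FPKM in the Y305A libraries, so both SRF-binding groups lay above all others. The capping tropomodulin TMOD1 was at 13.7 and 7.93 FPKM under MRTFB dN, at 8.41 in the 1 MRTFB dN dPY library with a value, and at most 0.446 in the other groups. Both genes entered the test only through the groups in which they are high, so no test is given for them in the text. TMOD4, another tropomodulin gene, was at most 1.79 FPKM in any library. TMOD3, the widely expressed tropomodulin, rose by 1.83 in MRTFB dN against the Puro vector (limma adjusted p = 0.019), and with loss of SRF binding it differed by -0.52 (adjusted p = 0.32). Its level was 58.2 and 40.3 FPKM in MRTFB dN, 17.3 and 9.58 in the Puro vector and 39.9 and 27.5 in the Hygro vector.

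Among the side binders, the caldesmon gene CALD1 went from 27.5 and 26.6 FPKM in the Puro vector to 1342 and 1190 in MRTFB dN, a log2 change of 5.49 ± 0.38 (limma adjusted p = 7.1e-06), and fell by 3.85 with loss of SRF binding (adjusted p = 7.7e-06). The calponin CNN2 rose by 3.59 in MRTFB dN (adjusted p = 7.0e-04) and fell by 1.89 with loss of SRF binding (adjusted p = 0.0029). CNN3 rose by 2.40 in MRTFB dN (adjusted p = 5.5e-04) and differed by -0.25 with loss of SRF binding (adjusted p = 0.48). All 3 severing genes rose in MRTFB dN and fell with loss of SRF binding, pooled over both backgrounds. Of these CFL2, the muscle cofilin, went from 2.39 and 3.20 FPKM to 99.6 and 63.2, a change of 4.41 ± 0.41 (adjusted p = 2.7e-05), and DSTN (destrin) and CFL1 (cofilin) rose by 3.49 (adjusted p = 5.2e-04) and 2.96 (adjusted p = 0.0020). In the Hygro vector CFL2 was at 6.58 and 10.5 FPKM. CFL1 was at 341 and 829 FPKM in the Hygro vector, 117 and 187 in the Puro vector and 1478 and 908 in MRTFB dN. In MRTFB dN Y305A against MRTFB dN alone, CFL1 differed by -1.01 (limma adjusted p = 0.25), which did not pass. Against the Puro vector it was still called higher in MRTFB dN Y305A, by 1.96 (adjusted p = 0.024). In MRTFB dN Y305A/dPY it was higher by 1.62 (adjusted p = 0.045).

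Troponins, which make tropomyosin calcium-sensitive in striated muscle, were mostly low. TNNC1 was at most 1.99 FPKM in any library. Higher were TNNT1, at 3.05 to 21.0 FPKM, and a locus that carries the names LAD1 and TNNT2, at 23.2 to 147. The gene that fell in MRTFB dN is a locus that carries the names SYT8 and TNNI2, which went from 208 and 145 FPKM in the Puro vector to 11.2 and 5.72, and which of the 2 genes the reads came from cannot be told. This locus also fell without SRF binding, to between 1.48 and 7.46 FPKM in the Y305A libraries. Against the Puro vector its log2 change was -5.00 in MRTFB dN Y305A (limma adjusted p = 0.0015) and -5.26 in MRTFB dN Y305A/dPY (adjusted p = 0.0011), against -4.27 in MRTFB dN.

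**Figure D4:**
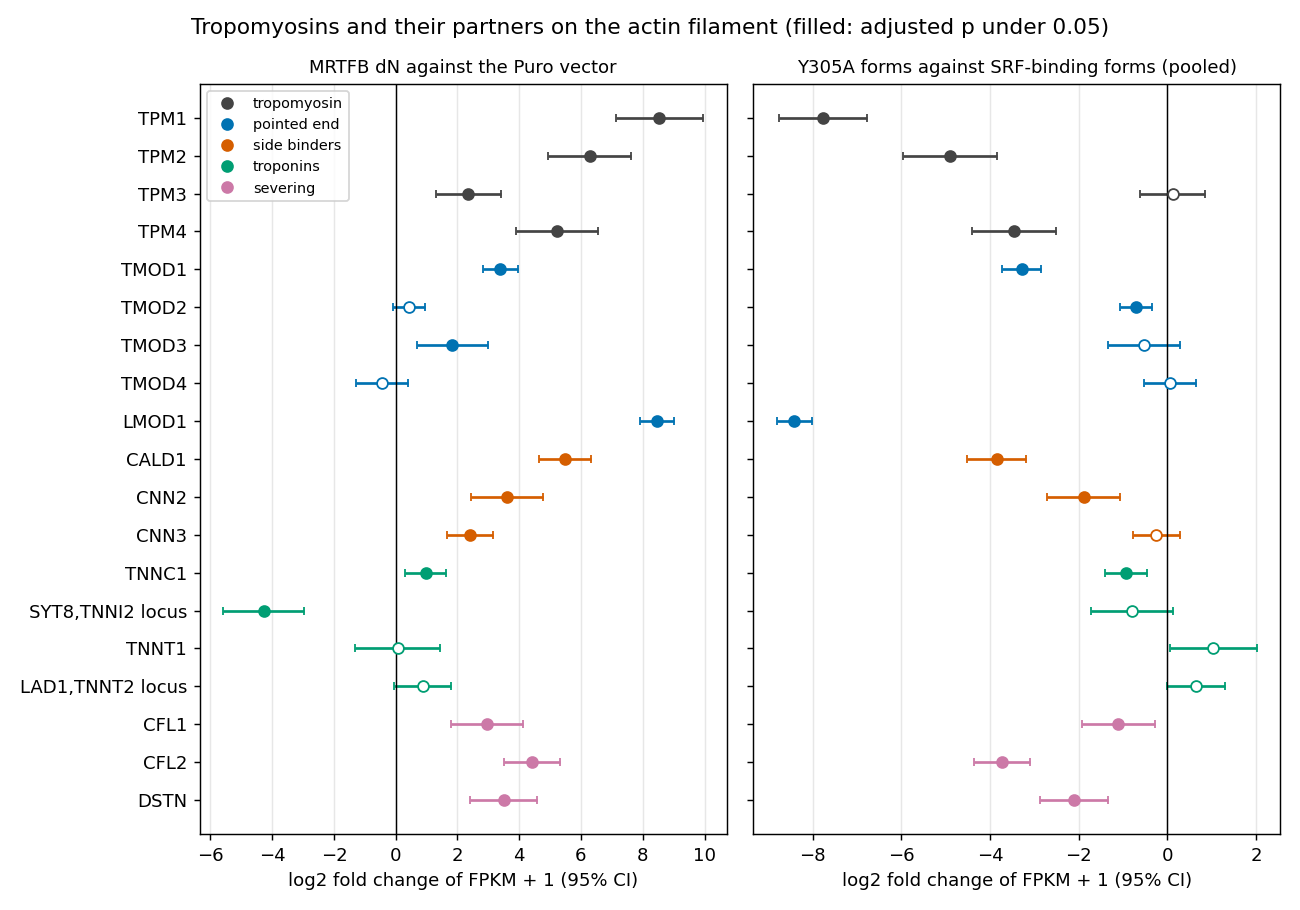
Log2 fold change of FPKM + 1 with its 95% confidence interval (limma) for the 4 tropomyosin genes and the 15 tested partners, for MRTFB dN against the Puro vector (left) and for the Y305A forms against the SRF-binding forms (right), with filled points where the adjusted p is under 0.05. LMOD1, TMOD1, TMOD4 and TNNC1 passed the filter on low values only with the help of the SRF-binding groups. Their points, intervals and fill are therefore a description and are not to be read as calls. CNN3 and TMOD3, like TPM3, are called on the left and not on the right.

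The loci most like each tropomyosin gene over the libraries were ranked by Pearson's r of log2(FPKM + 1) among 8702 single-gene loci with a mean of at least 3 FPKM. These values are a description over 13 or 14 libraries that fall into a few groups and share their scaling. For TPM1 the nearest were ADAMTS1, a secreted protease (r = 0.991), TMEM158 (0.985), the DNA glycosylase TDG (0.984), the actin-associated protein gene PALLD (0.984) and CFL2 (0.983). For TPM2, over the 13 libraries with a value, they were HACD1 (0.984), the protease PRSS23 (0.984), RUSC2 (0.983), MAT1A (0.974) and GATM (0.974). TPM4 was nearest to CSRP1, an actin-associated LIM protein gene (0.994), RSU1 (0.989), PICALM (0.983), ATL1 (0.982) and the LIM protein gene TES (0.978). The value for TES is over 13 libraries. TPM3 was nearest to CAPN2, a calpain protease gene (0.991), UFD1L (0.985), ATP5SL (0.983), NECAP2 (0.978) and RTCB (0.978). No gene was among the 5 nearest of more than 1 tropomyosin gene. Between the members r was 0.909 for TPM1 and TPM2, 0.903 for TPM1 and TPM4, 0.921 for TPM2 and TPM4, 0.697 for TPM3 and TPM4, 0.50 for TPM2 and TPM3 and 0.394 for TPM1 and TPM3.

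The 4 genes are similar in protein but could be told apart at the read length used. Of all windows of 75 bases in the annotated transcripts of the 4 genes (GENCODE v29), 0 were shared between members. With other genes on the same strand TPM1 shared 0.24% of its windows, TPM2 0%, TPM3 1.19% and TPM4 2.58%. On the opposite strand 17.34% of the TPM1 windows and 5.85% of the TPM4 windows lie in another transcript, and the strand setting of the counting is not given in the sources used here. Each gene has many annotated transcripts, and the table gives 1 value per gene, so muscle and non-muscle forms were not analysed here.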

How the data were processed

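The authors deposited 1 table of FPKM for 14 libraries, which per the submitters' processing notes used the hg19 build with the tools Cuffnorm, Cufflinks, TopHat and Bowtie, from stranded, poly(A)-selected libraries read as pairs of 75 bases per the labels' protocols. Versions, annotation and strand setting are not given in the sources used here. FPKM holds no counts, so depth is unknown and no counting interval is given. Values over a part of MRTFB dN dPY replicate 1 (5257 loci in 3 runs of zeros) were set to missing. The 13137 named loci that reached 1 FPKM in 2 or more libraries entered the test, on log2(FPKM + 1), so that fold changes of low genes are understated, with limma 3.58.1 in R 4.3.3: a linear model on group over all 14 libraries, with empirical Bayes moderation that follows an intensity trend, two-sided tests, 7 residual degrees of freedom (6 where 1 library has no value) and Benjamini-Hochberg adjustment over all tested loci within each comparison, at a threshold of 0.05. Shares used exact permutation tests (scipy 1.17.1). The fit was also run on simulated data with independent noise in each library, which does not cover same-numbered libraries that deviate together. Tables were made with pandas 2.3.3 and numpy 2.4.6 in Python 3.11.15.

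The 4 tropomyosin genes, the list of partners and the other lists were chosen with earlier results of these data known. Named were the 4 genes, MKL2, YAP1 and SRF, the 5 loci most like each gene, and, of the partners, the called ones with the largest changes and examples of each role. YAP 5SA was set against the Hygro vector and the MRTFB forms against the Puro vector. Replicate numbers were not in the model. Deviations of same-numbered libraries correlated in 6 of 6 pairs of MRTFB groups (0.318 to 0.64) but in 7 of 21 pairs over all groups, at a threshold of 0.1. The remaining pair was the Hygro and Puro vectors, at 0.243. By this rule the numbers pair the libraries within the MRTFB groups and between the empty vectors, as seen in the data and not stated in the labels. Alternatives were, for the shares, libraries exchanged within a replicate number, and for the fits a pseudocount of 0.1, no filter, median-of-ratios scaling, the compared groups alone, no intensity trend, a replicate block, the other vector, the zeros kept, loci summed by gene, and each library left out. Promoters come from RefSeq (GRCh38.p14); no hg19 coordinates were used.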

Additional observations from a re-analysis of the deposited data

Results flagged for a closer look

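The difference between the response to MRTFB dN and the response to YAP 5SA passed its test for all 4 genes (limma, Benjamini-Hochberg): 6.10 log2 units for TPM1, 5.09 for TPM2, 2.48 for TPM3 and 5.42 for TPM4. For TPM3, which differed by -0.12 in YAP 5SA and rose by 2.35 in MRTFB dN, and for TPM4, the difference was not called with the vectors exchanged, at -0.62 and 1.55. TPM3 was also not called with no filter (adjusted p = 0.064), nor without any one of 5 libraries (adjusted p = 0.057 to 0.080), and TPM2 was not called with the zeros of MRTFB dN dPY replicate 1 kept (adjusted p = 0.40).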

How the results depend on the processing

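A pseudocount of 0.1 and median-of-ratios scaling changed no direction and no call of the 4 genes. Each of the 4 genes has 1 locus, so summing loci by gene left their values the same by construction and is no test of them. The rises in MRTFB dN and MRTFB dN dPY and the falls with the Y305A change kept their direction and their calls for TPM1 and TPM4 under every alternative run. The cause of the changes below was not tested.

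The replicate number as a block over all groups left the count of called genes at 1 for YAP 5SA, 4 for MRTFB dN and MRTFB dN dPY, 2 for each Y305A form against the Puro vector, 3 for each loss of SRF binding, 0 for each loss of the YAP contact and 4 for the difference of responses. A block within the MRTFB groups alone, chosen after seeing the data, gave the same counts in the comparisons of the MRTFB forms that it was run on, and was not run for YAP 5SA or between the vectors. For the shares, exchanging libraries only within a replicate number, also chosen after seeing the data, left the differences at 72.78, -54.73 and -18.06 percentage points for TPM1, TPM3 and TPM4 with an exact permutation p of 0.056 for each, so those 3 calls were lost.

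Where 1 gene was called in YAP 5SA, 0 were with no filter, with the zeros kept and with the compared groups only. Where 2 were called in MRTFB dN Y305A against the Puro vector, 1 was with no filter and with the zeros kept, and 0 with the other vector or the compared groups only. For MRTFB dN Y305A/dPY, 1 of the 2 was called with no filter, and 0 with the other vector or the compared groups only. Between the vectors 0 became 2 with no intensity trend, and in the difference of responses 4 became 2 with the vectors exchanged.

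Against the other vector TPM3 and TPM4 were at 1.42 and 1.74 in YAP 5SA, TPM1 and TPM4 at -0.75 and -0.01 in MRTFB dN Y305A, TPM1 at -0.78 in MRTFB dN Y305A/dPY, and TPM3 at -0.62 in the difference of responses. With the zeros of MRTFB dN dPY replicate 1 kept, TPM2 was at -0.10 in MRTFB dN dPY against the Puro vector, 1.16 in MRTFB dN Y305A/dPY against MRTFB dN dPY and 5.88 in the test of whether the effects depend on each other, since a library at 0 then enters its group. In that fit TPM2 also lost its calls in MRTFB dN (adjusted p = 0.13), MRTFB dN Y305A against MRTFB dN (adjusted p = 0.38), the pooled loss of SRF binding (adjusted p = 0.57) and the difference of responses (adjusted p = 0.40).

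Leaving out each library in turn leaves 1 sample in a group, which is assumed to vary like the others. The count of called genes then ran from 0 to 2 in YAP 5SA, from 0 to 2 in MRTFB dN Y305A and in MRTFB dN Y305A/dPY against the Puro vector, and from 0 to 3 between the vectors. It ran from 3 to 4 in MRTFB dN dPY, and from 2 to 3 in MRTFB dN Y305A/dPY against MRTFB dN dPY and in the pooled loss of SRF binding, where TPM2 has no value without MRTFB dN dPY replicate 2. In YAP 5SA TPM3 ran from -0.65 to 0.40 and TPM4 from -1.08 to 0.69. In MRTFB dN dPY against MRTFB dN TPM1 ran from -0.41 to 0.25, TPM2 from -0.41 to 0.10 and TPM3 from -0.25 to 0.19. TPM3 ran from -0.36 to 0.70 in MRTFB dN Y305A against MRTFB dN, from -0.45 to 0.58 in MRTFB dN Y305A/dPY against MRTFB dN dPY and from -0.15 to 0.38 in the pooled contrast. For loss of the YAP contact without SRF binding, TPM1 ran from -0.56 to 0.51, TPM3 from -0.67 to 0.40 and TPM4 from -0.34 to 0.68. TPM2 ran from -0.81 to 1.25 between the vectors. In the test of whether the effects depend on each other TPM1 ran from -0.48 to 0.59, TPM3 from -0.63 to 0.43 and TPM4 from -0.84 to 0.18. The differences in share ran from 71.75 to 74.16 percentage points for TPM1, -55.74 to -53.83 for TPM3 and -19.53 to -17.07 for TPM4, where 3 against 4 libraries cannot go below p = 0.057 in an exact permutation test.

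The number of loci called over the whole table ran, over all alternatives, from 164 to 1302 in YAP 5SA (1086 as reported), 1890 to 5986 in MRTFB dN (4837), 1581 to 5937 in MRTFB dN dPY (4708), 7 to 4768 in MRTFB dN Y305A (3310) and 34 to 4846 in MRTFB dN Y305A/dPY (3469) against the Puro vector. It ran from 1 to 149 for MRTFB dN dPY against MRTFB dN (31), 1290 to 2843 for MRTFB dN Y305A against MRTFB dN (2192), 1179 to 2903 for MRTFB dN Y305A/dPY against MRTFB dN dPY (2290), 0 to 8 for loss of the YAP contact without SRF binding (2), 0 to 2648 between the vectors (1870), 2786 to 4762 in the pooled contrast (4020), 1 to 91 for the dependence of the effects (3) and 1727 to 5078 in the difference of responses (3814).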
